A study of Mus musculus with 22 samples.

Results

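The C1q/TNF-related proteins are a family of secreted paralogs of adiponectin. Members were taken by gene symbol, and 8 of the 23420 genes in the count table belong to the family as chosen here: C1qtnf1, C1qtnf2, C1qtnf3, C1qtnf4, C1qtnf5, C1qtnf6, C1qtnf7 and C1qtnf9. Fam132a and Fam132b, relatives under older symbols, are not among them and are given with the wider C1q-domain genes. The libraries come from inguinal white adipose tissue (IWAT, a subcutaneous depot that holds the mammary gland) of wildtype female C57Bl/6 mice. A group of 5 lean mice had eaten regular chow and a group of 6 obese mice a high fat diet, in both cases for 16 weeks. At about 20 weeks of age the left pad of each mouse received E0771 breast cancer cells, which derive from the same strain, in PBS and Matrigel (a basement membrane gel), and the right pad received PBS and Matrigel without cells. Both pads were taken after 2 weeks, so that each mouse gave a tumor-associated and a control library, 22 in all. Control IWAT therefore had also been injected with the gel, and came from a mouse that bore a tumor on the other side. The tumor and the sheet of fat around it were dissected away, and so was the inguinal lymph node.

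All members here except C1qtnf4 carry a collagen-like stretch. The proteins of this family share a signal peptide and a globular C1q domain at the C-terminal end. They have the fold of this domain in common with complement C1q, adiponectin and TNF. They assemble into trimers and larger complexes and circulate or act locally. Many are made in adipose tissue, by adipocytes or by stromal cells depending on the member, and they are known for effects on glucose and lipid metabolism, vessels, complement and inflammation. C1qtnf3 (also named CTRP3 or cartducin) is an adipokine first described in cartilage. The study picked it from these libraries for its rise in tumor-associated IWAT, so its levels are described here without a test, and the question put to the data is how its paralogs behaved in the same pads.

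Counts on genes ran from 5759775 to 8598108 per library, and 14458 genes passed the filter on low counts. Of the 8 members, 6 passed; C1qtnf4 was too low and C1qtnf5 was at 0. All 10 adipocyte markers looked up were detected in every group, and their summed level, in counts per 1000000 (CPM), ran from 11120 to 14760 in the control and 7488 to 12250 in the tumor-associated pads of lean mice. The obese mice had 11970 to 21330 in control pads and 1747 to 10830 on the tumor side. The lowest of these was obese mouse 4. One control library, of obese mouse 1, stood apart by its skeletal muscle markers (summed 2246 CPM, with a group median of 23.8) and its lymphocyte markers (364 CPM, with a median of 5.91).

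The members lie on 6 chromosomes (build GRCm38, GENCODE annotation M21), and C1qtnf3 and C1qtnf6 share chromosome 15 without being neighbours. C1qtnf3 occupies chr15:10952332-10980150 on the plus strand and C1qtnf6 chr15:78523346-78531416 on the minus strand. C1qtnf1 lies at chr11:118428203-118449963 and C1qtnf2 at chr11:43474276-43491525, both on the plus strand. C1qtnf4 lies at chr2:90885860-90890525, C1qtnf5 at chr9:44107245-44109187, C1qtnf7 at chr5:43515538-43618803 and C1qtnf9 at chr14:60768134-60780869, all on the plus strand. Every exon base of C1qtnf5 is also annotated to Mfrp on the same strand, so a read there cannot be given to either gene alone. C1qtnf1 shares 20.5% of its exon bases with Gm11747 on the opposite strand, which held 18 counts in all libraries together, and C1qtnf6 shares 4.3% with Gm49490; whether the counting used strand is not given in the sources used here.

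The 250 bases before the start of C1qtnf3, the member highest over control in tumor-associated pads, and of C1qtnf9 are shown because these 2 genes had the highest and the lowest fitted change among the 6 members tested in obese mice. They are given 5′ to 3′ as RefSeq has them (GRCm38.p6, plus strand, chr15:10952082-10952331 and chr14:60767884-60768133). Capitals mark a match to a searched motif.
C1qtnf3: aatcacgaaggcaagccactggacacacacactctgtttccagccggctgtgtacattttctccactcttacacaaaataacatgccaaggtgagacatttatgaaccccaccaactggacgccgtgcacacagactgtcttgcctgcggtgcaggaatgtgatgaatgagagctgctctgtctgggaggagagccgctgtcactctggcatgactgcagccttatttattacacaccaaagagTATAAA
C1qtnf9: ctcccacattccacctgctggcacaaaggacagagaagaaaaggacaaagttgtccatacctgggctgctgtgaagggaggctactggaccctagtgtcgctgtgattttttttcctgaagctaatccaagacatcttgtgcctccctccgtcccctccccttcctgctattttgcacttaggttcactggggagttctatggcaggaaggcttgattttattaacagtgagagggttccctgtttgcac
On both strands, 6 motifs were searched: the TATA box TATAAA, the CCAAT box CCAAT, the GC box GGGCGG, the AP-1 motif TGANTCA, the CRE motif TGACGTCA and the C/EBP motif TTGCNNCAA. The window of C1qtnf3 held 1 match, TATAAA starting at position -6 from the gene start, and 12.4% of 32851 mouse promoter windows of this length hold that motif. The window of C1qtnf9 held no match. Their GC content was 49.2% and 50%, with a median of 52.4% over all windows.

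Per kilobase of exon, the family in lean control IWAT was led by C1qtnf1 and C1qtnf9, with C1qtnf3 near the bottom. C1qtnf1 stood at 21.6 ± 7.09 CPM per kb (SD, n = 5) and C1qtnf9 at 18.8 ± 2.09, and the order of the 2 was not fixed, since C1qtnf1 was the higher in 2 of 5 libraries. C1qtnf6 followed at 4.57 ± 0.365, below C1qtnf9 in every library. C1qtnf2 (2.71 ± 0.287) and C1qtnf7 (2.25 ± 0.429) overlapped. C1qtnf3 was at 0.462 ± 0.311 and C1qtnf4 at 0.405 ± 0.167, and these ranges overlapped too. Among 14362 genes with a known exon length, C1qtnf1 sat at percentile 86.9 of the level per kb in this group and C1qtnf3 at percentile 6.

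In obese tumor-associated IWAT the order per kb was C1qtnf1, C1qtnf9, C1qtnf3, C1qtnf6, C1qtnf2, C1qtnf7. C1qtnf3 was there at 12.5 ± 10.8 CPM per kb (SD, n = 6), at percentile 71.4 of all genes with a length, beside C1qtnf9 at 13.0 ± 7.27 and C1qtnf6 at 11.2 ± 2.49. These 3 did not differ beyond their spread: C1qtnf9 was above C1qtnf3 in 4 of 6 libraries, and C1qtnf3 was above C1qtnf6 in 1 of 6. That one library, of mouse 0, was at 34.4 CPM per kb; without it C1qtnf3 stood at 8.07 ± 1.51 (SD, n = 5), at percentile 58.4 and below C1qtnf6 at 10.3 ± 0.613, and its share of the family was 15.1% ± 9.35. As a share of the family's summed CPM per kb, C1qtnf3 made up 0.85% ± 0.508 of control and 5.54% ± 1.82 of tumor-associated pads in lean mice. The same shares in obese mice were 1.42% ± 1.12 and 19.6% ± 13.8, and single tumor-associated libraries of these mice ran from 7.24% to 42.1%. The share of C1qtnf9 was 37.7% ± 6.26, 27.5% ± 4.58, 44.3% ± 3.28 and 18.7% ± 7.28 in the same order. The sum itself was 50.8 ± 8.21, 73.0 ± 10.6, 79.0 ± 14.6 and 66.8 ± 21.0 CPM per kb.

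**Figure D1:**
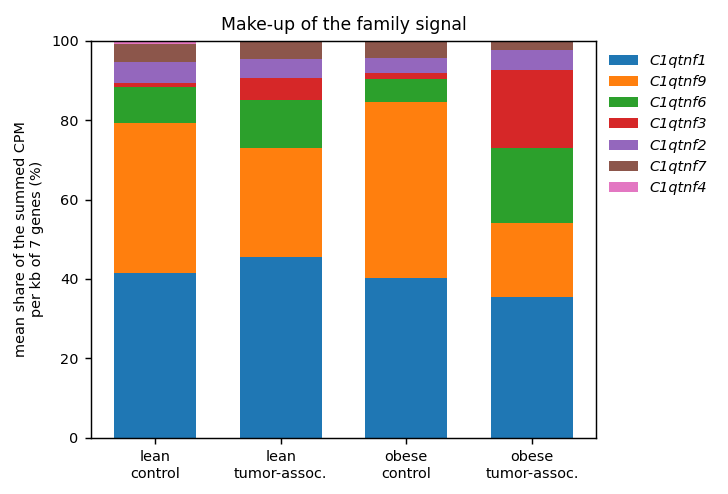
Mean share (%) of each member in the summed CPM per kb of the 7 members with counts, by group (bars start at 0 and add to 100). The C1qtnf3 segment grows from 0.85% in lean control to 19.6% in obese tumor-associated pads, while the C1qtnf9 segment is largest in obese control pads at 44.3%.

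C1qtnf3 was low in control IWAT and higher in the tumor-associated pad of every mouse. In lean control pads its level was 1.86, 1.22, 0.612, 0.176 and 2.03 CPM for mice 0, 2, 3, 6 and 9, which came from 16, 7, 4, 1 and 12 reads. The tumor-associated pads of the same mice gave 14.2, 13.4, 7.06, 4.50 and 14.5 CPM. The lowest tumor-associated library was thus above the highest control library (groups did not overlap for 8.36% of all genes tested). In obese mice the control pads ran from 1.38 to 7.07 CPM with a median of 2.08, and the tumor-associated pads from 16.0 to 87.9 CPM with a median of 22.6. All 6 obese tumor-associated libraries lay above the 5 lean ones (groups did not overlap for 24.4% of all genes tested), and the highest was that of mouse 0. The fitted log2 fold changes were 3.13 (SE 0.607) in lean and 3.49 (SE 0.516) in obese mice, which ranked 10 and 40 from the top of the 14458 genes tested. Obese over lean, the log2 fold change was 1.57 (SE 0.496) in tumor-associated pads, and 0.94 without obese tumor-associated mouse 0. In control pads it was 1.21 (SE 0.608), from few reads, and 0.66 (SE 0.588) without obese control mouse 2.

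**Figure D2:**
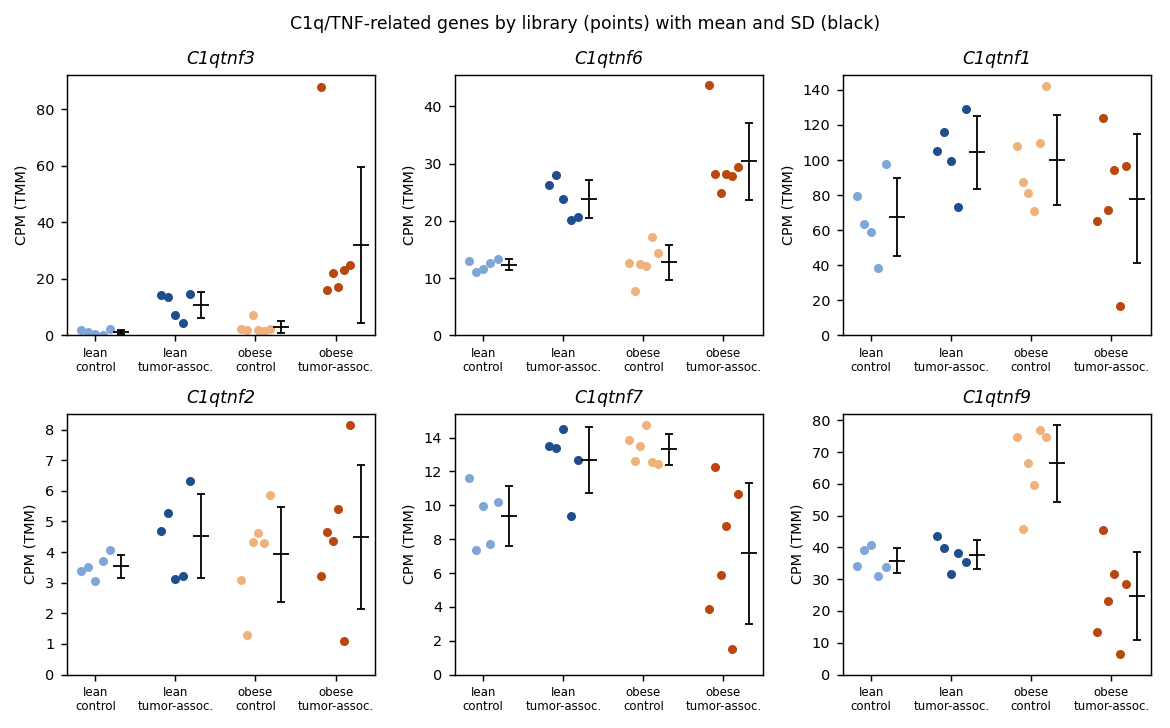
Level of the 6 members that passed the filter, in CPM scaled by the trimmed mean of M-values (linear axes from 0), for each library (points) in the 4 groups, with mean and SD in black. Tumor-associated points lie above control points in both diets for C1qtnf3 and C1qtnf6, and below them in obese mice for C1qtnf7 and C1qtnf9.

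C1qtnf6 rose with the tumor in both diets, and of the other 5 members tested it was the one called higher. Its product is known as an inhibitor of the alternative complement pathway. Lean control pads held 13.0, 11.02, 11.6, 12.7 and 13.4 CPM, and the tumor-associated pads of the same mice 26.2, 28.0, 23.9, 20.2 and 20.7 CPM. No tumor-associated library fell within the control range, as for 8.36% of all genes tested. The log2 fold change was 0.94 (SE 0.173, adjusted p = 0.003, edgeR quasi-likelihood test). In obese mice the control pads ran from 7.76 to 17.2 CPM (median 12.5) and the tumor-associated pads from 25.0 to 43.8 CPM (median 28.2). Again there was no overlap, as for 19.6% of all genes tested. The log2 fold change in obese mice was 1.25 (SE 0.157, adjusted p = 8.27e-06), and the level was higher in the tumor-associated pad of 5 of 5 lean and 6 of 6 obese mice. The difference between the diets' changes, 0.31 (SE 0.232), did not pass the edgeR test (adjusted p = 0.353).

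Over the other members the lean comparison gave 1 call in 5 tested, C1qtnf6, where 4.18% of all genes tested were called, 3.27% higher and 0.913% lower. Median log2 fold changes were 0.43 over these 5 and 0.007 over all genes. C1qtnf1, known for blocking platelet aggregation on collagen, had a log2 fold change of 0.63 (SE 0.339, adjusted p = 0.392, edgeR), with a higher level in the tumor-associated pad of 5 of 5 mice. C1qtnf7 had 0.43 (SE 0.327, adjusted p = 0.631) and was likewise higher in 5 of 5 mice, C1qtnf2 had 0.35 (SE 0.385, adjusted p = 0.815), and C1qtnf9 had 0.07 (SE 0.305, adjusted p = 0.986). Beside this, 6 of 10 macrophage markers and 5 of 12 fibroblast markers rose in lean tumor-associated pads. Of 10 adipocyte markers 0 were called by edgeR and 0 by DESeq2, with 2 lower at an unadjusted p under 0.05 and a median log2 fold change of -0.59. The summed macrophage markers ran from 697 to 1502 CPM in lean control and from 1517 to 3234 CPM in lean tumor-associated pads, and the fibroblast markers from 6601 to 9420 and from 14220 to 21290 CPM. Their part in the changes of C1qtnf3 and C1qtnf6 was not tested. In bulk tissue, fewer or more cells of a type and less or more RNA per cell cannot be told apart.

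In obese mice C1qtnf6 rose, C1qtnf9 and C1qtnf7 fell, and C1qtnf1 and C1qtnf2 were not called. That is 3 of 5 called, 1 higher and 2 lower, where 54.5% of all genes tested were called in this comparison, 26.8% higher and 27.7% lower, so the count is near the share over all genes. C1qtnf9, the closest paralog of adiponectin and known for effects on vessels and heart, ran from 45.8 to 76.9 CPM (median 70.7) in control pads and from 6.36 to 45.4 CPM (median 25.8) in tumor-associated pads. The highest tumor-associated library, of mouse 1, lay just under the lowest control library, which was that of the same mouse. The log2 fold change of C1qtnf9 was -1.42 (SE 0.282, adjusted p = 0.000431, edgeR). C1qtnf7, a less studied member, ran from 12.5 to 14.7 CPM (median 13.1) in control and from 1.49 to 12.3 CPM (median 7.33) in tumor-associated pads, also without overlap. Its log2 fold change was -0.89 (SE 0.301, adjusted p = 0.0173), a call that was lost when the obese groups were fitted alone (adjusted p = 0.0718). Groups did not overlap for 19.6% of all genes tested.

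C1qtnf1 and C1qtnf2 had log2 fold changes of -0.36 (SE 0.308, adjusted p = 0.336, edgeR) and 0.19 (SE 0.347, adjusted p = 0.667) in obese mice. For C1qtnf1 the control pads ran from 70.7 to 142 CPM (median 97.7) and the tumor-associated pads from 16.6 to 124 CPM (median 82.9). The library at 16.6 CPM was that of mouse 4, which was also the lowest obese tumor-associated library for C1qtnf2 (8 reads), C1qtnf7 (11 reads) and C1qtnf9 (47 reads), and the lowest for the adipocyte, endothelium, fibroblast (5390 CPM, with a group median of 17020) and macrophage markers (1386 CPM, with a median of 4135). For C1qtnf3 and C1qtnf6 that library was not the lowest (23.1 and 27.9 CPM).

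Marker genes moved in the same comparison. In obese tumor-associated pads 9 of 10 adipocyte markers, 4 of 5 endothelium markers and 6 of 7 epithelium markers fell. There 7 of 10 macrophage markers rose, and of 12 fibroblast markers 5 rose and 1 fell. Over all genes tested 54.5% were called in this comparison, 26.8% higher and 27.7% lower. The endothelium sum ran from 886 to 1235 CPM in control and from 257 to 1096 CPM in tumor-associated pads. No adipocyte, endothelium or epithelium marker was at 0 in a whole group. Their part in the falls of C1qtnf7 and C1qtnf9 was not tested. Without the obese tumor-associated libraries of mice 0 and 4, the ones lowest in adipocyte markers, the log2 fold changes were -1.07 (SE 0.171, adjusted p = 0.00014, edgeR) for C1qtnf9, -0.52 (SE 0.176, adjusted p = 0.0243) for C1qtnf7 and 1.10 (SE 0.152, adjusted p = 4.23e-05) for C1qtnf6. Of the remaining lists, 1 of 3 skeletal muscle markers tested fell and 1 of 2 chondrocyte markers tested, Sox9, rose in obese mice. Of 5 lymphocyte markers 0 were called there by edgeR and 0 by DESeq2, with 2 lower at an unadjusted p under 0.05. In lean mice the epithelium, endothelium, skeletal muscle, lymphocyte and chondrocyte lists had 0 calls by either tool, with 1 endothelium and 1 chondrocyte marker higher at an unadjusted p under 0.05.

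**Figure D3:**
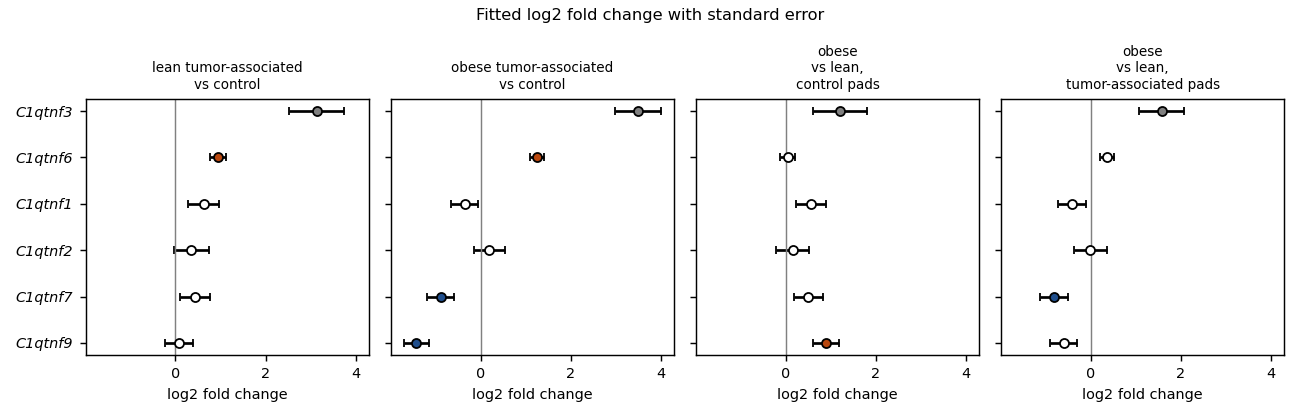
Fitted log2 fold change (x axis) with its standard error for 6 members (y axis) in 4 comparisons. Orange points were called higher and blue points lower at an adjusted p of 0.05, and white points were not called. Grey points mark C1qtnf3, for which no call is given because the study picked it from these libraries. C1qtnf6 is the only orange point in both tumor comparisons, and C1qtnf7 and C1qtnf9 are blue in the obese one.

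Pads of the same mouse can be set against each other, which shows how C1qtnf3 compared with its paralogs in each animal. The log2 CPM of C1qtnf3 in the tumor-associated pad exceeded that in the control pad by 2.76, 3.17, 3.03, 3.37 and 2.67 in lean mice 0, 2, 3, 6 and 9. In obese mice the change ran from 1.60 (mouse 2, whose control pad was the highest) to 5.10 (mouse 0). Lean mice had a mean change of 3.00 ± 0.289 (SD, n = 5), and obese mice one of 3.30 ± 1.15 (SD, n = 6). The values of C1qtnf6 were 0.92 ± 0.29 and 1.25 ± 0.458.

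In each of the 11 mice the change of C1qtnf3 was larger than that of any other member tested. It exceeded the largest of the others by 2.03 ± 0.264 on the log2 scale in lean mice and by 2.05 ± 1.10 in obese mice, with a smallest margin of 0.62. Set against the mean of the other 5 members, the margin came to 2.53 ± 0.295 for lean and 3.69 ± 1.72 for obese mice; the lean value depends on the count added before the logarithm, since C1qtnf3 had as few as 1 read in a control library, and was 2.85 with 0.5 added and 2.13 with 5 added. C1qtnf7 was lower in the tumor-associated pad of 6 of 6 obese mice, from -0.04 in mouse 1 to -2.86 in mouse 4. C1qtnf9 was lower in 6 of 6, from -0.01 to -3.54 in the same mice, and it had a mean change of 0.07 ± 0.281 in lean mice. Mouse 4 thus had the largest falls of both genes, and mouse 1 almost no change. The control pad of mouse 1 was the library set apart by its skeletal muscle and lymphocyte markers. It was also the lowest obese control library for C1qtnf9 (45.8 CPM) and for the summed adipocyte markers (11970 CPM). The part of this library in the small change of mouse 1 was not tested.

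**Figure D4:**
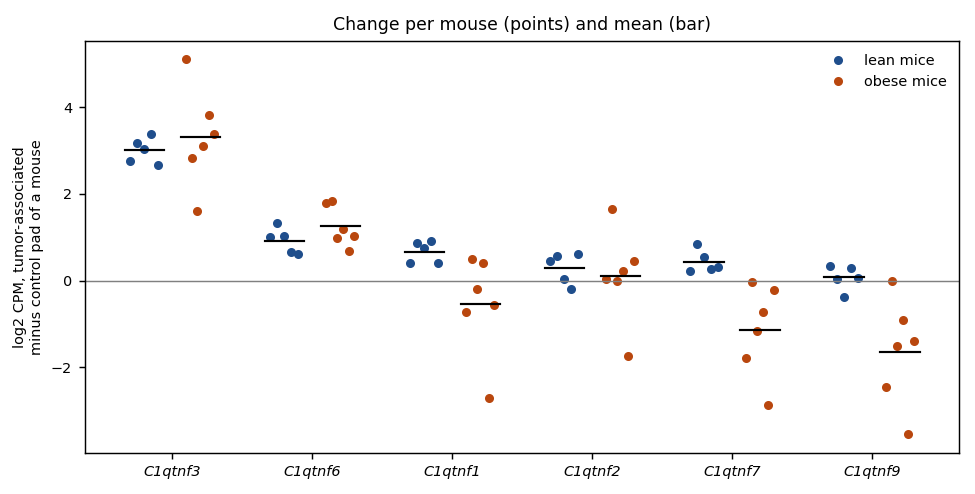
Difference in log2 CPM between the tumor-associated and the control pad of a mouse (y axis) for 6 members (x axis), with lean mice in blue, obese mice in orange and the mean as a bar. C1qtnf3 lies above the other members, at means of 3.00 and 3.30, and C1qtnf7 and C1qtnf9 are below 0 in all 6 obese mice.

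Between the diets, C1qtnf9 was higher in obese than in lean control IWAT, and in tumor-associated IWAT C1qtnf7 was lower in the obese mice. In lean control pads C1qtnf9 stood at 34.3, 39.2, 40.7, 31.1 and 33.9 CPM, all below the lowest obese control library at 45.8 CPM. Its log2 fold change was 0.89 (SE 0.295, adjusted p = 0.0421, edgeR), 1 call among 5 members where 17.1% of all genes tested were called (9.54% higher, 7.53% lower); it was lost under 3 of 7 other settings and with 12 of 22 libraries left out one at a time (adjusted p 0.00414 to 0.0961), which were the 5 lean control libraries, lean tumor-associated mice 0 and 9, and obese control mice 0, 2, 3, 4 and 8. C1qtnf7 also did not overlap between the control groups, as did 13% of all genes tested, but its log2 fold change of 0.50 (SE 0.315) was not called (adjusted p = 0.293). Between control pads 2 adipocyte markers (Lep and Cidec), 2 macrophage markers, 1 endothelium marker (Pecam1) and 3 of 3 skeletal muscle markers tested were higher in obese mice. In the same comparison 3 adipocyte and 2 epithelium markers were lower. The summed muscle markers ran from 13.7 to 2246 CPM in obese control pads, with a median of 23.8, and the highest was mouse 1. Lean control pads reached 8.88 CPM. The part of all these marker lists was not tested.

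In tumor-associated pads C1qtnf7 was at 13.5, 13.4, 14.5, 9.40 and 12.7 CPM in lean mice. The 6 obese libraries overlapped these, from 1.49 to 12.3 CPM. Its log2 fold change, obese over lean, was -0.82 (SE 0.313, adjusted p = 0.0365, edgeR), 1 call among 5 where 47% of all genes tested were called, 24.7% higher and 22.4% lower. The call was lost without mice 0 and 4 (-0.44, adjusted p = 0.0675), with the groups compared fitted alone, and with 6 of 22 libraries left out singly (lean tumor-associated mice 0, 2, 3 and 9, obese tumor-associated mice 0 and 2). C1qtnf9 (-0.61, SE 0.292, adjusted p = 0.0919) and C1qtnf6 (0.35, SE 0.161, adjusted p = 0.0771) did not pass, though the first did without obese tumor-associated mouse 1 and the latter without obese control mouse 1. C1qtnf1 (-0.42, SE 0.321) and C1qtnf2 (-0.01, SE 0.364) were not called either. In the same comparison 7 of 7 epithelium, 5 of 10 adipocyte, 4 of 12 fibroblast and 2 of 5 endothelium markers were lower in obese mice, and 4 of 10 macrophage markers and 1 adipocyte marker, Lep, were higher. Their part in these differences was not tested either.

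The tumor change itself differed between the diets for C1qtnf9. Obese minus lean, the log2 difference was -1.50 (SE 0.415, adjusted p = 0.0467, edgeR), 1 call among 5 where 4.92% of all genes tested were called, 2.58% higher and 2.34% lower. With the mouse as a replicate block the difference was -1.67 (SE 0.498) and was no longer called (adjusted p = 0.0669), and with each library left out in turn it was called 4 of 22 times, without obese tumor-associated mouse 1, 3, 4 or 8. C1qtnf7 gave -1.32 (SE 0.445, adjusted p = 0.065), and was called without obese tumor-associated mouse 1, 4 or 8, and C1qtnf1 -0.98 (SE 0.457, adjusted p = 0.141). For C1qtnf3 the fitted difference was 0.36 (SE 0.807), which turned to -0.25 without obese tumor-associated mouse 0.

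C1qtnf4 was at the limit of the depth, and C1qtnf5 could not be judged. C1qtnf4, whose product carries a pair of C1q domains and no collagen-like stretch, had 17 reads over the 5 lean control, 14 over the 5 lean tumor-associated and 10 over the 6 obese control libraries, and 0 over the 6 obese tumor-associated libraries. A floor of 3 reads was set in the 43078890 counts of that last group, and the reads of the other groups were taken as exact. On that basis the obese tumor-associated level was at least 5.84-fold lower than the lean tumor-associated level. It was at least 3.38-fold lower than the obese control level. Counting error of the other groups' reads and the spread between mice are not in these bounds, so the true folds can be smaller. The bound against obese control pads rests in part on obese control mouse 2, which held 5 of the 10 reads. Without that library it is 2.06-fold. C1qtnf4 did not enter the main test. Without the filter on low counts, the edgeR adjusted p was 0.000972 for obese against lean tumor-associated pads and 0.0034 for obese tumor-associated against control pads. C1qtnf5, known for a dominant retinal degeneration, had 0 of the 153120919 counts in all libraries, as had Mfrp. Since its exon bases all belong to both genes, this 0 does not tell low expression from reads given to neither gene.

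Over deviations from the group means, pooled across the groups, C1qtnf1, C1qtnf2, C1qtnf7 and C1qtnf9 varied together, and C1qtnf3 and C1qtnf6 did not follow them. The obese tumor-associated pads spread most for these 4 genes. For C1qtnf9 they ran from 6.36 to 45.4 CPM, against 31.5 to 43.6 CPM in lean tumor-associated pads. Obese mouse 4 was the lowest of that group for all 4. How far the values of r rest on that group or library was not tested. As a description over 22 libraries that pair up by mouse and share groups, Pearson's r of the deviations from the group means lay between 0.681 and 0.875 for every pair of the first 4. For C1qtnf3 against these 4 it lay between -0.2 and 0.17, and for C1qtnf6 between -0.034 and 0.358. C1qtnf3 and C1qtnf6 had an r of 0.871 over the levels in the libraries, of which the group means carry much, since the deviations gave 0.342. C1qtnf3 and C1qtnf9 had -0.535 over the levels and -0.2 over the deviations.

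**Figure D5:**
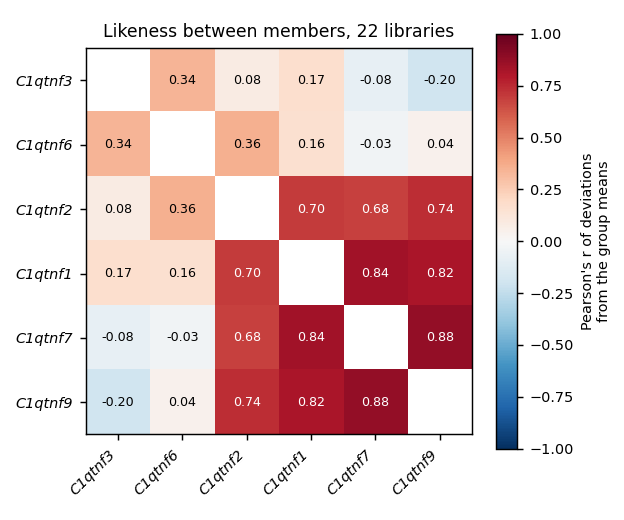
Pearson's r between members (rows and columns) over 22 libraries, computed on deviations of log2 CPM from the group means, from -1 (blue) to 1 (red). C1qtnf1, C1qtnf2, C1qtnf7 and C1qtnf9 form a block between 0.68 and 0.88, and C1qtnf3 with C1qtnf6 is at 0.34. Deviations of all groups are pooled, and those of the obese tumor-associated libraries are the widest for the genes of the block.

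The genes whose levels were most like C1qtnf3 over the 22 libraries, by Pearson's r of log2 CPM, were Ms4a7 (0.939), Loxl2 (0.929), Ms4a6d (0.926), Col12a1 (0.925), Oas1a (0.922), Bach1 (0.914), Cilp (0.913), Ankfy1 (0.913), Tlr8 (0.913) and Fcgr1 (0.91). Ms4a7, Ms4a6d, Tlr8 and Fcgr1 are known from macrophages, and Loxl2, Col12a1 and Cilp from the extracellular matrix. On deviations from group means their r lay between 0.401 (Ankfy1) and 0.7 (Cilp). The genes nearest to C1qtnf6 were Efemp2 (0.953), Bmp1 (0.941) and P4ha3 (0.934), which take part in elastic fibre and collagen formation, with 0.66 to 0.748 on deviations. For C1qtnf7 they were Tek (0.953), Dnm3 (0.942) and Arhgef10 (0.942), and for C1qtnf9 Shroom4 (0.973), Heph (0.972) and Abcc9 (0.966), all 6 above 0.9 on deviations as well. Tek, an angiopoietin receptor of endothelium, is also on the endothelium list. C1qtnf1 was nearest to Chp2 (0.944), Plekhg5 (0.941) and Htra3 (0.938), and C1qtnf2 to Pqlc1 (0.817), Maged2 (0.783) and Pmp22 (0.781).

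The wider C1q-domain family, 23 further genes of which 13 were tested, held calls in both directions in obese mice. Of these, Fam132a and Fam132b are older symbols of C1qtnf12 and Erfe, which also count as C1q/TNF-related proteins. The match on symbol left them out of the members. The 3 chains of complement C1q, C1qa, C1qb and C1qc, rose in both diets, with log2 fold changes of 1.39 (SE 0.2), 1.34 (SE 0.238) and 1.40 (SE 0.216) in lean and 1.68 (SE 0.184), 1.60 (SE 0.218) and 1.43 (SE 0.196) in obese mice. Emilin1 and Emilin2, which bind elastic fibres, rose in both as well. In obese mice Col8a1, Col8a2 and Fam132b also rose, and adiponectin (Adipoq, log2 fold change -1.52, SE 0.335, adjusted p = 0.000957, edgeR) and Fam132a (-0.95, SE 0.241, adjusted p = 0.0028) fell, together 5 of 13 called in lean mice, all higher (4.18% of all genes tested were called), and 10 of 13 in obese mice, 8 higher and 2 lower (54.5% of all genes, 26.8% higher and 27.7% lower). Fam132b was low, with 20 reads over the obese control and 99 over the obese tumor-associated libraries. In lean mice it had 8 and 29 reads. It may have passed the filter on low counts through the group where it was high, so its call is only a description. Adipoq held 1472 to 2785 CPM in obese control and 169 to 1207 CPM in obese tumor-associated pads, without overlap, as for 19.6% of all genes tested. Col8a1, a short-chain collagen, had a tumor change that differed between the diets (2.07, SE 0.509, adjusted p = 0.0416, edgeR). It was 1 call among 13 where 4.92% of all genes tested were called. Over all genes, the calls of this comparison went from 711 to 18 without the filter on low counts. Between the diets, Col8a1 was lower in obese control pads (-1.44, SE 0.362, adjusted p = 0.00957, edgeR), 1 call among 13 where 17.1% of all genes tested were called. In obese tumor-associated pads 3 of 13 were higher and 1 lower, where 47% of all genes tested were called.

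Among 10 genes proposed as receptors or binding partners of the family or its relatives, 8 were tested. The study lists the products of Lamp1, Scarb2 and Adipor2 as receptors proposed for C1QTNF3, with a significance still largely unknown. Calr, which encodes calreticulin, rose in lean (log2 fold change 0.38, SE 0.103, adjusted p = 0.0405, edgeR) and obese mice (0.75, SE 0.095, adjusted p = 9.15e-06). In obese mice C1qbp, for a C1q-binding mitochondrial protein, rose (0.92, SE 0.224, adjusted p = 0.00199) and the adiponectin receptor Adipor2 fell (-0.78, SE 0.201, adjusted p = 0.00297). Adipor1 had -0.09 (SE 0.094) in lean and -0.08 (SE 0.086) in obese mice. Lamp1, for a lysosomal protein reported to bind C1QTNF3, had 0.18 (SE 0.121) and 0.21 (SE 0.111); neither gene was called, nor were Scarb2, Cd93 and Cdh13. Between the diets 2 of 8 were higher in obese control pads, Cdh13 and Scarb2, and 2 in obese tumor-associated pads, Calr and C1qbp. Over all genes tested 17.1% and 47% were called in these comparisons, and 4.18% and 54.5% in the lean and obese tumor comparisons. For the tumor change, obese minus lean, 0 of 8 were called by edgeR and 2 by DESeq2, with 2 at an unadjusted p under 0.05, C1qbp (0.96, SE 0.332) and Calr (0.37, SE 0.14).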

How the data were processed

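RNA was depleted of ribosomal RNA and sequenced. Per the labels and the study's methods, the authors used prinseq for trimming and STAR 2.4.0f for mapping (mm10), and deposited raw HTSeq counts per gene symbol; annotation, strand setting and counting mode are not given in the sources used here. The table's 5 rows of totals that name no gene were left out; reads on no gene made up 38.5% to 48.75%. No 2 libraries of a group were copies of each other, since chi-square over its degrees of freedom was at least 5.95.

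The counts were tested with edgeR 4.0.16 (R 4.3.3): quasi-likelihood fit to all 22 libraries in 4 groups, TMM scaling, filterByExpr, Benjamini-Hochberg adjustment over 14458 genes, calls at an adjusted p under 0.05. CPM used TMM library sizes; per-mouse changes and likeness used log2 CPM with a prior count of 2. Levels per kb used union exon length in GENCODE M21. P-values of this fit measure the spread between libraries of a group, each from a different mouse, pooled over the 4 groups. They do not use the pairing of pads by mouse, which only the fit with the mouse as block does. The study's own design, DESeq2 (1.42.0), was an alternative, beside other scalings, filters, the mouse as block, each library left out and, chosen after seeing the data, both obese tumor-associated libraries lowest in adipocyte markers left out; the levels without obese tumor-associated mouse 0 and the C1qtnf4 bound without obese control mouse 2 were also added then. The pads carry the same mouse number, as the design pairs them: deviations of the 2 pads of a mouse correlated with a median r of 0.508 in lean (5 of 5 pairs over 0.1) and 0.168 in obese mice (4 of 6), against -0.124 and -0.072 for pads of different mice. In simulated data with 14458 genes, edgeR found 45 of 100 genes changed by 1 on the log2 scale and 99 of 100 changed by 2 in the lean comparison, with 9 false calls. The simulation gave every gene and group the same dispersion and held no mouse effect, so it checks the code and does not measure recovery in these data. Named genes are all members, the fixed lists of C1q-domain genes, receptors and cell markers, the 10 genes most like C1qtnf3 and the 3 most like each other tested member; the members and lists were chosen with earlier results of these data known. RefSeq promoter windows were matched by symbol for 6 of 8 members.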

Additional observations from a re-analysis of the deposited data

Results flagged for a closer look

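Among the 6 members tested, each of the 4 groups was checked for a library apart from the rest (Dixon's ratio of gap to range, 24 checks, of which chance flags about 1 in 20). In obese tumor-associated pads C1qtnf3 of mouse 0 was at 87.9 CPM, with a ratio of 0.743, and C1qtnf6 of the same mouse at 43.8 CPM, with a ratio of 0.709. C1qtnf1 of obese tumor-associated mouse 4 was at 16.6 CPM, with a ratio of 0.677. C1qtnf3 of obese control mouse 2 was at 7.07 CPM, with a ratio of 0.708, which made this mouse the one with the smallest change of C1qtnf3.

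The tumor change differed between the diets for C1qtnf9, by -1.50 on the log2 scale (adjusted p = 0.0467, edgeR interaction), which was not called with the mouse as a replicate block. C1qtnf7 was higher in the tumor-associated pad of 5 of 5 lean mice and lower in that of 6 of 6 obese mice, with mean changes of 0.43 and -1.13 on the log2 scale, 1.56 apart. The opposite directions as such were not tested; the interaction of the edgeR fit gave an adjusted p of 0.065.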

How the results depend on the processing

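The calls of C1qtnf6 in both tumor comparisons and of C1qtnf9 in the obese one held in all 30 other fits made for them, counting the 22 with 1 library left out. In obese against lean control pads the count of other members called was 1, with 0 under upper-quartile scaling, 0 with no filter and 0 with at least 10 counts in every library, 2 with the groups fitted alone and 2 without obese tumor-associated mice 0 and 4; libraries left out in turn gave 0 to 1. In tumor-associated pads it was 1, with 2 in DESeq2 and with no filter, 0 with the groups alone and 0 without mice 0 and 4, and 0 to 2 with libraries left out. For the obese minus lean change it was 1, with 2 in DESeq2, 0 with no filter and 0 with the mouse as a replicate block, and 0 to 2 with libraries left out. The lean margin of C1qtnf3 over the mean of the others was 2.85 with a prior count of 0.5 and 2.13 with 5. The signs that turned were those of small or uncalled values: C1qtnf6 between control pads under upper-quartile scaling (-0.022, and -0.058 to 0.142 with libraries left out), and, without mice 0 and 4, C1qtnf2 between tumor-associated pads (0.31; left out -0.269 to 0.187), C1qtnf2 in the obese minus lean change (0.16; left out -0.42 to 0.036) and C1qtnf3 in the same (-0.31; left out -0.252 to 0.911). With libraries left out C1qtnf2 in obese mice ran from -0.067 to 0.374 and C1qtnf9 in lean mice from -0.002 to 0.133. The cause was not tested. The mouse block changed no other call of a member. Over all genes the lean comparison called 605, and 918 in DESeq2, 1437 with its groups alone, 421 without the filter and 183 to 952 with a library left out, and the obese minus lean change 711, 2329 in DESeq2, 18 without the filter and 1 to 3568; upper-quartile scaling moved the share called higher from 78.2% to 65.7% in lean mice and from 55.9% to 42.5% in control pads. Depth limits C1qtnf3 in control pads and C1qtnf4 everywhere.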
